A study of Homo sapiens with 4 samples.

Results

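The genes described here encode factors of nonsense-mediated mRNA decay. They were taken as a list of 9 genes, UPF1, UPF2, UPF3A, UPF3B, SMG1, SMG5, SMG6, SMG8 and SMG9, out of 58302 genes in the deposited tables. The rule that took them used no measured value, but earlier results of these data were known when they were chosen. The question for this list is the level of the decay machinery in cells in which MIB1 transcripts may carry frameshifts, and whether that level differed once MIB1 had been cut. All 9 genes were matched and all 9 passed the filter on low counts that left 16181 genes for testing.

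Nonsense-mediated decay removes mRNAs on which a ribosome stops too early. As a rule, though not always, a stop codon that lies well upstream of an exon junction is read as premature. The exon junction complex left there by splicing has then not been cleared by the ribosome when it terminates. UPF1, an RNA helicase, is bridged to that complex by UPF2 and UPF3B, is phosphorylated by the kinase SMG1, and then recruits SMG6, which cuts the mRNA, and SMG5, which helps to bring in the deadenylation and decapping enzymes. Several transcripts of the pathway's own factors are known substrates of the pathway, so their levels are often read as a gauge of its activity.

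The RNA came from NCI-H838, an established line of human non-small-cell lung cancer. The cells, called MIB1-iKO, carry a piggyBac insertion with a guide RNA against MIB1, a Cas9 gene switched on by doxycycline (dox) through a tetracycline transactivator, and puromycin resistance. At day 3, RNA of 4 samples was sequenced, 2 grown without dox and 2 with dox at 0.5 μg/mL. All 4 carry the same insertion, so the control differs from the knockout only in dox, and an effect of dox or of Cas9 itself cannot be told apart from loss of MIB1. The MIB1 lines were isolated as single-cell clones, and the labels give neither the clone nor the guide. The study describes the samples of a group as biological replicates, while the labels give replicate numbers and nothing on separate cultures. Epithelial markers were present, with 234 to 458 reads for EPCAM and CDH1 and 1100 to 2448 for the keratins KRT8 and KRT18, although KRT19 was listed at 0, as were the lung lineage genes NKX2-1 and SFTPB. Both dox libraries were below both controls for KRT8 and KRT18, with log2 fold changes of −0.34 and −0.41. They were above both controls for EPCAM and CDH1, with 0.13 and 0.25, and none of these 4 genes was called. Of all genes tested, 38.6% had groups that did not overlap, in either direction. The blood markers PTPRC and CD68 were at 0 in every library. Among the 5 blood and endothelial and 4 fibroblast markers, COL1A1 alone exceeded 10 reads, with 22 to 89.

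The total read counts were 24398411 and 21207419 without dox, and 15943025 and 17048990 with dox. Both dox libraries were the shallower ones. The targeted gene, MIB1 (ENSG00000101752), which encodes an E3 ubiquitin ligase, was covered by 598 and 588 reads in the controls, the no dox libraries, and by 90 and 59 in the dox libraries. Its RPKM (the deposited level, which corrects reads for gene length and depth) was 2.66 and 2.81 without dox and 0.617 and 0.340 with dox. The groups were far apart, and MIB1 fell by 2.58 ± 0.23 (SE) on the log2 scale (limma, adjusted p = 0.000375).

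The place of the stop codons that a frameshift would uncover is the background to this gene list. On the MIB1 transcript ENST00000261537.7 (GRCh38, chromosome 18, 21704957 to 21870953, plus strand), which has 21 exons and a coding sequence of 3021 bases, exon 1 holds the first 229 coding bases. The study's guide 1 matches coding bases 41 to 59 and guide 2 bases 172 to 190, both in exon 1, with cuts after bases 56 and 187. These libraries were not read for edits here, so single-base shifts are given as worked examples. With 1 base lost at guide 1, the first stop in the shifted frame lies at coding position 149, still in exon 1 with 20 exon junctions downstream. With 1 base gained at either guide, the first stop lies at position 240 in exon 2, with 19 junctions downstream. With 1 base lost at guide 2, it lies at position 359 in exon 2, also with 19 junctions downstream. These 3 stops are shown in the unedited reference sequence, 5′ to 3′ on the plus strand, with the stop codon in capitals.
MIB1 coding position 149 (chr18:21741717-21741749): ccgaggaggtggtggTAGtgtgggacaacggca
MIB1 coding position 240 (chr18:21765772-21765799): gcatcaagcaTGAtggaaccatgtgtga
MIB1 coding position 359 (chr18:21765886-21765918): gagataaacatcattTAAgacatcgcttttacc
In the normal frame none of these triplets is read as a codon. All of the 3 lie at least 2521 coding bases upstream of the last exon junction, which follows coding base 2880. Whether a transcript with any of these stops was degraded was not tested.

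**Figure D1:**
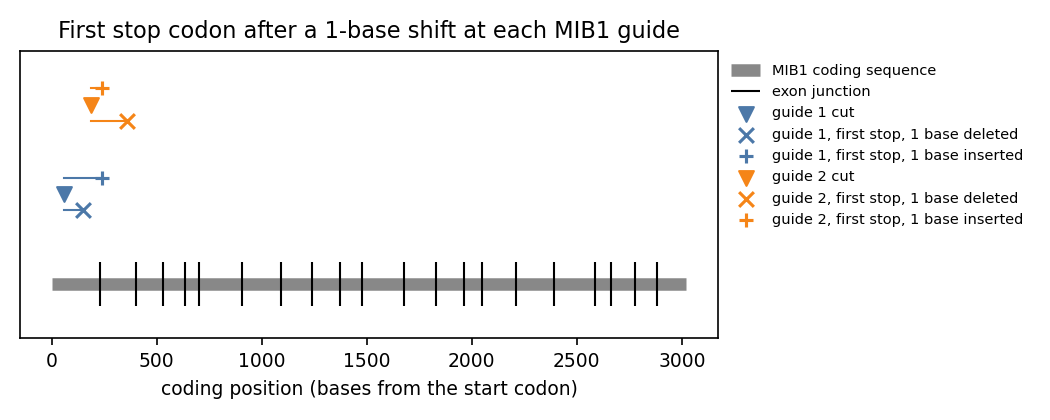
The x axis is the position in the MIB1 coding sequence in bases, the grey bar is the coding sequence and the black ticks are its 20 exon junctions. Triangles mark the cut of each guide and crosses the first stop codon after 1 base lost or gained, and all of the stops fall between positions 149 and 359, upstream of most junctions.

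The decay factors themselves were expressed at very different levels. Within each group the order was the same but for the pairs SMG8 with SMG5 and SMG6 with SMG1, which changed places. Mean RPKM over the 4 libraries was highest for SMG8, at 8.75 ± 0.35 (SD, n = 4), and SMG5, at 8.68 ± 0.86, and these neighbours overlapped. UPF1 followed at 4.94 ± 0.13, UPF3B at 2.16 ± 0.46, SMG9 at 1.55 ± 0.07 and UPF2 at 1.10 ± 0.05, and none of these ranges overlapped the next in the order. UPF3A at 0.585 ± 0.085, SMG6 at 0.343 ± 0.139 and SMG1 at 0.337 ± 0.029 formed the low end, where UPF3A overlapped SMG6 and SMG6 overlapped SMG1. These genes also share the most sequence with other genes, at 42.4%, 29.3% and 19.0% of the 50-base stretches of their reference transcripts. How reads from shared stretches were counted is not stated, and their part in this order was not tested. The highest and lowest of the 9 differed 25.97-fold in RPKM. Dividing reads by the length of the reference transcript kept the rank of 7 genes and swapped SMG6 with SMG1. The SMG1 kinase and its partners SMG8 and SMG9, which act as one complex, thus stood at the bottom, the top and the middle of the order of transcript levels. In a bulk library, fewer cells with a transcript and less of it in each cell cannot be told apart.

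**Figure D2:**
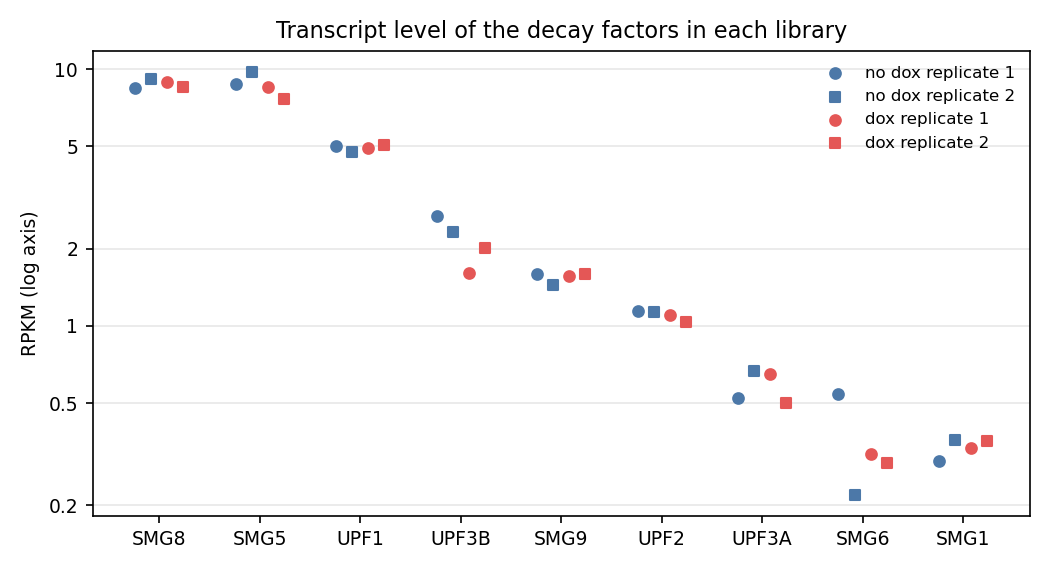
Each point is the RPKM of a gene in 1 library on a log axis, blue without dox and red with dox, circles for replicate 1 and squares for replicate 2, with genes in order of mean level. Between genes the levels run from 0.220 for SMG6 to 9.76 for SMG5, and within most genes the red and blue points lie among each other.

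None of the 9 decay factors was called in the comparison of dox with no dox, where a gene was called if it changed 2-fold or more with an adjusted p no higher than 0.05. Over all genes tested, 0.0371% were called. At an unadjusted p under 0.05 the count was again 0 of 9, beside 9.28% of all genes, and edgeR and DESeq2 also gave 0 calls and 0 at an unadjusted p under 0.05. The log2 fold change was above 0 for 4 genes and below 0 for 5, with a median of −0.09 beside −0.00042 over all genes. The median size of the change, whichever its sign, was 0.087 for the decay factors and 0.16 over all genes. The groups did not overlap for 3 of the 9, UPF2, UPF3B and SMG5, all lower with dox, where 38.6% of all genes did not overlap in either direction and 19.1% did so lower with dox. With 2 samples against 2, an exact permutation test of 1 gene cannot give a two-sided p below 0.333, so the p-values below are those of the model fitted over all genes. A p that misses the threshold does not show equal levels, and the 95% interval is therefore given for each gene. A 2-fold change lay outside that interval for 8 of the 9 genes and within it for SMG6.

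UPF1 (ENSG00000005007, chromosome 19, 18831959 to 18868230), the helicase at the centre of the pathway, was covered by 632 and 562 reads in the controls and by 403 and 495 in the dox libraries. In RPKM the controls stood at 5.00 and 4.77 and the dox libraries at 4.91 and 5.07. The groups overlapped and lay within a narrow band. The log2 fold change was 0.06 ± 0.14 (SE), with a 95% interval from −0.24 to 0.35 (limma, adjusted p = 0.936).

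UPF2 (ENSG00000151461, chromosome 10, 11920022 to 12043170), the scaffold that joins UPF1 to a UPF3 protein, was covered by 159 and 146 reads in the controls and by 99 and 111 in the dox libraries. This gave RPKM values in the controls of 1.15 and 1.13 and in the dox libraries of 1.10 and 1.04. Both dox libraries lay below both controls, by a small margin. On the log2 scale the difference was −0.09 ± 0.21, with an interval from −0.53 to 0.36 (limma, adjusted p = 0.934).

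UPF3B (ENSG00000125351, chromosome X, 119834022 to 119852998), which binds the exon junction complex, had the largest difference of the list. It was covered by 150 and 121 reads in the controls and by 58 and 87 in the dox libraries. RPKM was 2.68 and 2.32 without dox, a mean of 2.50 ± 0.25 (SD, n = 2), and 1.60 and 2.02 with dox, a mean of 1.81 ± 0.30. Both dox libraries were below both controls, and dox replicate 1 was the lowest. Dox against no dox gave a log2 fold change of −0.47 ± 0.24, with an interval from −0.99 to 0.04 (limma, adjusted p = 0.586), which did not pass the test. The fitted log2 fold change was −0.29 without dox replicate 1 and −0.67 without dox replicate 2. Of all genes tested, 12.5% had a larger difference in either direction. Normalized log2 values over the 4 libraries were taken as deviations from each gene's mean. The 3 genes most like UPF3B in them were MGAT2, TCF19 and ENSG00000272617, among 12343 genes compared. Their root mean square distances from UPF3B were 0.018, 0.026 and 0.030. Each profile holds only 4 values and no background distance was computed, so these matches are not evidence of shared regulation.

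UPF3A (ENSG00000169062, chromosome 13, 114281601 to 114305817), the paralog of UPF3B, was covered by only 31 and 37 reads in the controls and by 25 and 23 in the dox libraries. In RPKM the controls stood at 0.521 and 0.668 and the dox libraries at 0.648 and 0.502. The groups overlapped. The log2 fold change was −0.10 ± 0.37, with an interval from −0.89 to 0.68 (limma, adjusted p = 0.959), and it took the other sign, at 0.06, when no dox replicate 2 or dox replicate 2 was left out. The ratio of UPF3A to UPF3B RPKM was 0.194 and 0.287 without dox and 0.405 and 0.248 with dox, so the groups overlapped here too. The mean log2 ratio was 0.43 higher with dox (exact permutation test, two-sided, p = 0.667, in a design that cannot go below 0.333). Leaving out 1 library moved this difference widely, to 0.07 without dox replicate 1, 0.14 without no dox replicate 1, 0.71 without no dox replicate 2 and, at the most, 0.78 without dox replicate 2.

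SMG1 (ENSG00000157106, chromosome 16, 18804860 to 18926408), the kinase that phosphorylates UPF1, was covered by 122 and 137 reads in the controls and by 89 and 113 in the dox libraries. This gave RPKM values in the controls of 0.297 and 0.358 and in the dox libraries of 0.334 and 0.357. The groups overlapped. On the log2 scale the difference was 0.08 ± 0.22, with an interval from −0.39 to 0.55 (limma, adjusted p = 0.946), and it was −0.05 without no dox replicate 1.

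SMG8 (ENSG00000167447, chromosome 17, 59209400 to 59215239), a regulatory partner of SMG1, was covered by 742 and 753 reads in the controls and by 509 and 578 in the dox libraries. In RPKM the controls stood at 8.42 and 9.17 and the dox libraries at 8.90 and 8.50. The dox values lay between those of the controls. Dox against no dox gave a log2 fold change of 0.02 ± 0.13, with an interval from −0.26 to 0.30 (limma, adjusted p = 0.980), and its sign was kept in 4 of 10 other ways of processing.

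SMG9 (ENSG00000105771, chromosome 19, 43727983 to 43754962), the other partner in the kinase complex, was covered by 228 and 193 reads in the controls and by 146 and 176 in the dox libraries. This gave RPKM values in the controls of 1.59 and 1.45 and in the dox libraries of 1.57 and 1.59. The groups overlapped. The fitted log2 fold change was 0.08 ± 0.19, with an interval from −0.32 to 0.47 (limma, adjusted p = 0.934), and it was −0.01 without no dox replicate 2.

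SMG5 (ENSG00000198952, chromosome 1, 156249224 to 156282825), which helps to link phosphorylated UPF1 to deadenylation and decapping, was covered by 938 and 974 reads in the controls and by 593 and 634 in the dox libraries. In RPKM the controls stood at 8.76 and 9.76 and the dox libraries at 8.53 and 7.67. Both dox libraries lay below both controls. The log2 fold change was −0.17 ± 0.13, with an interval from −0.45 to 0.12 (limma, adjusted p = 0.747).

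SMG6 (ENSG00000070366, chromosome 17, 2059839 to 2303785), the endonuclease of the pathway, was covered by 82 and 31 reads in the controls and by 31 and 34 in the dox libraries. This gave RPKM values in the controls of 0.542 and 0.220 and in the dox libraries of 0.316 and 0.292. The controls were the far-apart pair here, and both dox libraries lay between them. The ratio of no dox replicate 1 to replicate 2 was 2.30, with a 95% counting interval from 1.504 to 3.60. Of 18 such ratios between replicates, 9 genes in 2 groups, 5 had an interval that did not include 1. These intervals cover counting error only, since reads amplified by PCR are not independent molecules. On the log2 scale the difference was −0.26 ± 0.41, with an interval from −1.13 to 0.61 (limma, adjusted p = 0.893). It was 0.41 without no dox replicate 1 and −0.85 without no dox replicate 2, so its direction rested on 1 library.

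**Figure D3:**
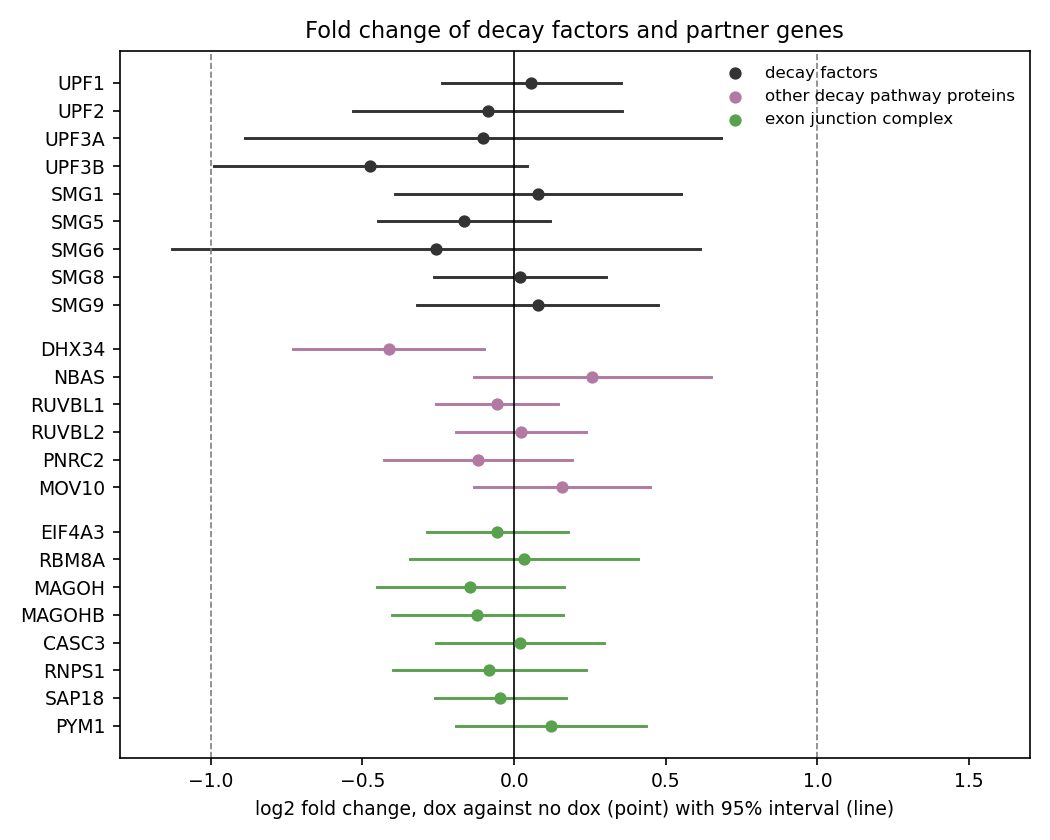
Points are log2 fold changes of dox against no dox and lines their 95% intervals from limma, for the 9 decay factors, 6 other proteins of the pathway and 8 exon junction complex genes, with dashed lines at a 2-fold change. The interval of SMG6 alone crosses a dashed line, and among the partners the interval of DHX34 lies wholly below 0.

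Reads of 4 of the genes can come from elsewhere. Of the 50-base stretches of the reference UPF3A transcript, 42.4% also occur in another gene, UPF3AP1, UPF3AP2 or UPF3AP3, whose summed counts were 0 in 3 libraries and 1 in dox replicate 2. For SMG1 the share was 19.0%, led by SMG1P2 with 11.4% of the stretches. A coding stretch is shown as an example. It was searched for as one with a single difference at its centre, so it does not measure how close the copies are elsewhere. It is given 5′ to 3′ for SMG1 (coding bases 138 to 197) and for SMG1P2, with the base that differs in capitals (T31C, SMG1 base first, counted from 1 at the 5′ end of the stretch).
SMG1: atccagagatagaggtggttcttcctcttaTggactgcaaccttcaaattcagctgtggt
SMG1P2: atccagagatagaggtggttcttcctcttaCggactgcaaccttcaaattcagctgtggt
The pseudogenes SMG1P1 to SMG1P7 held at most 22 reads each. SMG1P1 had 14, 13, 13 and 11 reads and SMG1P3 15, 22, 10 and 7, in the order no dox 1 and 2 and dox 1 and 2. SMG1P2 had 3 to 7 reads, SMG1P4, SMG1P5 and SMG1P7 at most 4, and SMG1P6 was at 0. With all of them added, SMG1 was covered by 165 and 181 reads in the controls and by 122 and 141 in the dox libraries. SMG6 shares 29.3% of its stretches with the gene HIC1 on the opposite strand, and SMG8 shares 11.9% with the same-strand gene ENSG00000265303. Since the use of strand in counting is not stated, the SMG6 count is uncertain in this respect. The shares were 0.239% for SMG9 and 0 for the other 4 genes. Some of the genes also have transcripts that the annotation itself marks as targets of nonsense-mediated decay, 2 of 17 for UPF1, 1 of 16 for SMG1, 1 of 6 for SMG8 and 1 of 13 for SMG9. The other 5 have none, and counts per gene do not separate such transcripts from the coding ones.

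The other proteins of the pathway did not pass the test either. DHX34, a helicase that works with SMG1, was covered by 662 and 749 reads in the controls and by 346 and 421 in the dox libraries. Both dox libraries were lower, with RPKM of 5.19 and 5.31 beside 6.44 and 7.83. Its log2 fold change was −0.41 ± 0.15, with an interval from −0.73 to −0.10 (limma, adjusted p = 0.392). NBAS, which acts in decay at the endoplasmic reticulum, was covered by 815 and 718 reads in the controls and by 472 and 908 in the dox libraries. The dox libraries stood on either side of the controls in RPKM, at 4.25 and 6.88 beside 4.76 and 4.51, and the log2 fold change was 0.26 ± 0.18. The ATPases RUVBL1 and RUVBL2 had log2 fold changes of −0.06 and 0.02, PNRC2, a decapping adaptor, −0.12, and MOV10, a helicase, 0.16. The 6 genes had a median of −0.02, with 1 at an unadjusted p under 0.05, beside 9.28% of all genes tested.

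The exon junction complex genes, whose products mark the junctions downstream of a premature stop, kept within a narrow range. None of the 8 was called or reached an unadjusted p under 0.05. Their median stood at −0.05 on the log2 scale, with values running from −0.14 for MAGOH to 0.12 for PYM1, which strips the complex from mRNA. The core helicase EIF4A3 had −0.05, RBM8A 0.03, MAGOHB −0.12, CASC3 0.02, RNPS1 −0.08 and SAP18 −0.05.

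Termination and cap-binding factors and the enzymes of general mRNA decay were likewise without a call. Of 7 termination and cap-binding genes the median was 0.01. ETF1, the release factor, had a log2 fold change of −0.20 ± 0.12 and NCBP1, a cap-binding subunit, −0.19 ± 0.12, while GSPT2, a release factor GTPase, had 0.11 ± 0.23 and NCBP2 0.05 ± 0.11. Of 28 general decay genes, 18 had values above 0 and 10 below, with a median of 0.06 and none at an unadjusted p under 0.05. PAN2, a deadenylase, was the lowest of them at −0.43 ± 0.21 (limma, adjusted p = 0.550), followed by PATL1, a decapping activator, at −0.26 ± 0.24. EDC3, another decapping factor, was the highest at 0.23 ± 0.13, followed by PELO, which rescues stalled ribosomes, at 0.19 ± 0.12.

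Transcripts that the pathway is known to degrade, a list of 16, had a median log2 fold change of −0.02, with 7 above 0 and 9 below. Of these, 2 had an unadjusted p under 0.05, beside 9.28% of all genes tested. None was called. The median changed sign with the libraries used. It was −0.15 without dox replicate 1 and −0.08 without no dox replicate 2. It was 0.07 with no dox replicate 1 left out and 0.12 with dox replicate 2 left out. Most of the list stood higher in replicate 1 than in replicate 2 in both groups. Leaving out 1 library unbalances the replicate numbers, and the part of this in the signs was not tested. The median deviation from each gene's mean had an SD between replicates of 0.15, beside 0.024 for the decay factors. In a fit with the replicate number as a block, the median log2 fold change was −0.0038. GADD45B, a stress-induced gene, was covered by 213 and 209 reads in the controls and by 176 and 255 in the dox libraries. RPKM was higher in both dox libraries, at 7.41 and 9.03 beside 5.82 and 6.13, and its log2 fold change was 0.48 ± 0.18 (limma, adjusted p = 0.425). GAS5, a snoRNA host transcript, had 0.29 ± 0.17. Its RPKM was 27.6 and 21.1 without dox and 33.9 and 24.6 with dox. The groups of GAS5 overlapped, but dox was higher at each replicate number. With the replicate number as a block, GAS5 passed the adjusted p threshold of 0.05 (limma) but was not called. SNHG12, another host transcript, and SLC7A11, a cystine transporter, had the lowest values at a mean count of at least 50, −0.35 ± 0.25 and −0.35 ± 0.27. MAP3K14, a kinase of the NF-κB pathway that was named after its values were seen, was covered by 53 and 67 reads in the controls and by 22 and 25 in the dox libraries. Its log2 fold change was −0.92 ± 0.35 (limma, adjusted p = 0.423), opposite in sign to that of GADD45B. Several of these genes also respond to stress, so the list is not one of decay alone.

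**Figure D4:**
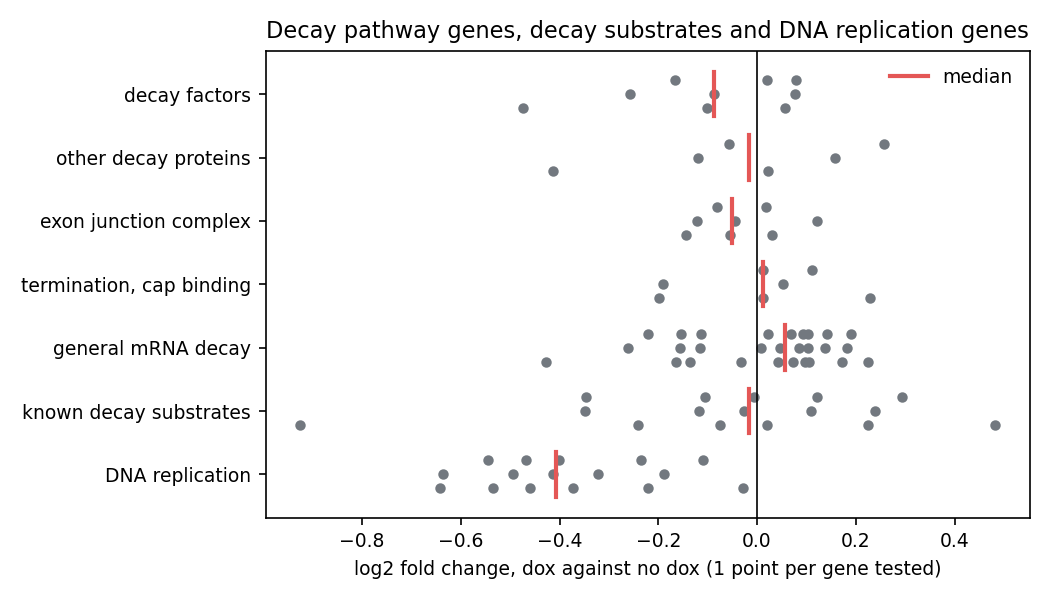
Each point is the log2 fold change of 1 gene tested and each red bar the median of a list. The medians of the decay lists lie between −0.09 for the decay factors and 0.06 for general mRNA decay, while that of the DNA replication genes is −0.41.

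The DNA replication genes were set beside the decay factors because cells that divide less carry less of them. All 16 had log2 fold changes below 0, with a median of −0.41 and 0 called. Of them, 10 had an unadjusted p under 0.05, beside 9.28% of all genes tested. As the median deviation from each gene's mean, they stood at 0.12 and 0.26 without dox and −0.20 and −0.24 with dox. The same quantity for the 9 decay factors was 0.018 and 0.048 without dox and −0.011 and −0.047 with dox. The 2 lists were not compared by a test, and the part of cell division in the values of the decay factors was not tested.

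**Figure D5:**
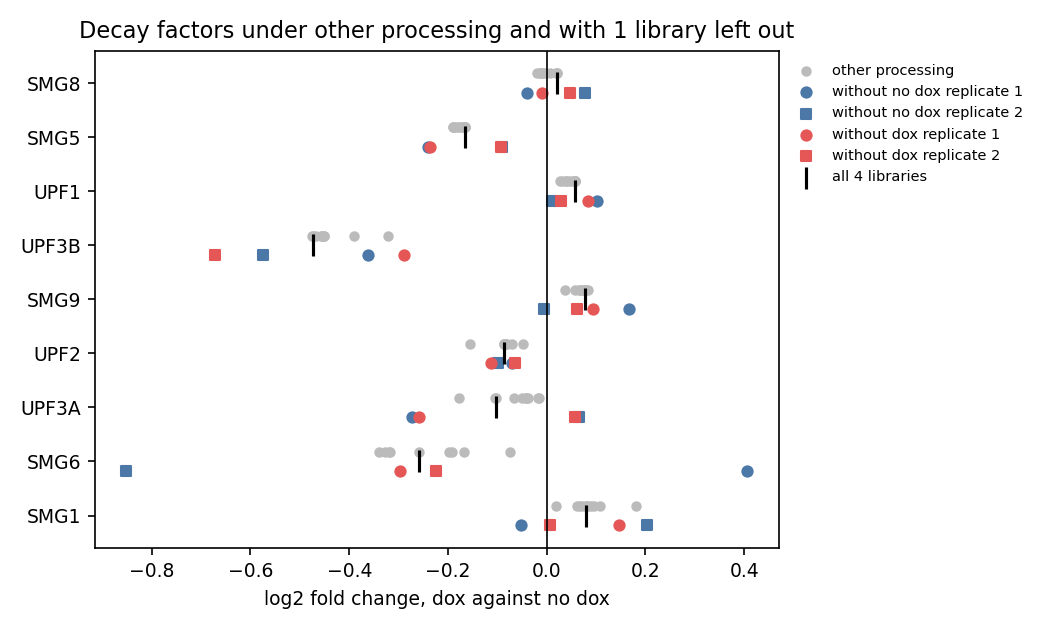
For each decay factor the black bar is the log2 fold change from all 4 libraries, grey points are other ways of processing, and coloured points leave out 1 library. UPF3B, UPF2 and SMG5 stay below 0 and UPF1 above 0 throughout, while SMG6 runs from −0.85 to 0.41.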

How the data were processed

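Groups and replicate numbers came from the sample labels. The authors removed ribosomal reads, aligned 50-base reads with GSNAP to GRCh38, and used HTSeqGenie to count reads over exons; the deposited counts are whole numbers per gene. The methods name RefSeq annotation, whereas the tables hold Ensembl identifiers. Library kits for low input and for stranded mRNA are both described, and which one was used is not stated. The deposited RPKM values carry a further scaling per library by the authors (0.932, 0.649 and 0.771 relative to no dox replicate 1, where totals stood at 0.869, 0.653 and 0.699). Replicates differed beyond sampling noise (chi-square per degree of freedom 9.34 and 13.1).

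Symbols and positions are from GENCODE on GRCh38 (57532 of 58302 identifiers matched). Stops and 50-base stretches were found by script in that reference. Genes passing filterByExpr were quantile-normalized with voom and tested with limma 3.58.1 (R 4.3.3) without covariates. The Benjamini-Hochberg adjustment ran over every gene tested. Normalization, fit and thresholds follow the study's methods, which state no filter on counts and do not name the kind of FDR adjustment. RPKM served for levels and for the ratio of UPF3A to UPF3B, and for tests only among the alternatives. Alternatives were edgeR 4.0.16, DESeq2 1.42.0, TMM or library-size scaling, other filters, log2(RPKM + 0.1) and log2(RPKM + 1), thinning, a replicate block, pseudogene reads added to SMG1 and UPF3A, and leaving out each library.

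The members and lists were chosen with earlier results of these data known. The genes named are MIB1, the 9 decay factors, the other pathway proteins on a list from which a withheld gene is not reported here, exon junction genes and SMG1 pseudogenes, and, in the termination, general decay and substrate lists, the 2 highest and 2 lowest with a mean count of at least 50, plus any with an adjusted p of at most 0.05. MAP3K14, below that count at a mean of 41.8, was added after its values were seen. The replication list is given as a whole. For the decay factor with the largest difference, the 3 genes most like it are named.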

Additional observations from a re-analysis of the deposited data

How the results depend on the processing

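No decay factor was called under any of the alternatives run. At an unadjusted p under 0.05 there was 1 of 9 under the replicate block, UPF3B, beside 20.2% of all genes in that fit, and 1 of 9 without no dox replicate 2, SMG6, beside 5.19%, and 0 under the others. The median log2 fold change of the decay factors, −0.087, was small and moved with the processing: −0.050 with edgeR, −0.043 with DESeq2, −0.038 with TMM scaling in voom, −0.016 with library size only, −0.042 on log2(RPKM + 0.1), −0.018 on log2(RPKM + 1), −0.15 after thinning, and 0.020 among the 7 genes whose mean count was 50 or more. Leaving out 1 library gave −0.11 to 0.0068. MIB1 stayed lower but lost its call with no filter beyond 1 read (−2.58, adjusted p = 0.613), where 28798 genes were tested, on log2(RPKM + 0.1) (−2.33, adjusted p = 0.108) and on log2(RPKM + 1) (−1.34, adjusted p = 0.0962), all with limma; the cause was not tested. With 1 library left out, which leaves a lone sample assumed to vary like the other group, it ranged from −2.998 to −2.16 and was not called, and no gene was. Over all genes, 6 were called, 0 with no filter or on either RPKM scale, and 78 under the replicate block. With the adjusted p threshold of 0.05 as the sole rule, the counts were 11, 28 with DESeq2, and 1154 under the block. On the lists these held MCM3 and GINS2 with DESeq2, and DHX34, GAS5, KRT8, KRT18 and 11 of the 16 DNA replication genes under the block. Under the block UPF3B had an adjusted p of 0.233 (limma), within a range of 0.233 to 0.955 over the alternatives with all 4 libraries. Taken over all genes tested, samples with the same number deviated together only weakly (correlation 0.13). That value summarizes all genes and does not describe each of them, and most of the known decay substrates stood higher in replicate 1 in both groups. What a number means is not given in the labels, so the block is not read as pairing. UPF3A with its pseudogene reads was added after seeing the data. Depth limits UPF3A and SMG6, whose highest counts in a library were 37 and 82 reads.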
